A study of Mus musculus with 2 samples.

Results

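The glucose, lactate and phosphate carriers of the renal proximal tubule (PT) were followed as 7 genes, Slc5a2, Slc5a1, Slc5a10, Slc2a2, Slc5a12, Slc34a1 and Slc34a3. They were taken by symbol from the 32285 genes that the count matrices list, and all 7 had counts in kept cells of both libraries. The series holds single-cell RNA sequencing (10x) of kidneys from C57BL/6J wildtype male mice aged 19 weeks. One library came from a left kidney that had undergone 27 min of unilateral ischemia and was taken 24 h later. The other came from the contralateral kidney, which was not injured and is the control. The design text speaks of 1 mouse that gave both kidneys, so the control kidney had shared the circulation of an injured animal. Each condition is represented by 1 library, so conditions were not tested against each other, library and condition cannot be told apart, and every interval below covers counting error only.

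The control library held 142686238 unique molecular identifiers (UMIs, counts of captured RNA molecules) in 15110 barcodes, of which 12586 were kept as cells, and the ischemia library 142959737 in 15257, of which 13116 were kept. Kept cells had a median of 3839 UMIs in control and 2138.5 in ischemia, and 58 barcodes occurred among the kept cells of both libraries. Clustering without the 7 genes gave 18 clusters and 13 named cell types, with 3913 control and 2783 ischemia cells called PT-like. The PT name drew on general PT markers pooled with markers of its early part, of its late part and of PT injury. The 9 general PT markers summed to 18830.4 and 15607 CPM in PT-like cells, against 4936 and 2813 CPM in endothelial (EC)-like cells. CPM is the usual scaled count, here relative to all UMIs of the same cells. A cluster of 10465 cells with a median of 836 UMIs could not be named.

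The proximal tubule reabsorbs nearly all filtered glucose and most filtered phosphate, and takes up lactate as a substrate of gluconeogenesis. Sodium-coupled carriers of the brush border bring these solutes into the cell, driven by the sodium gradient that the basolateral Na,K-ATPase maintains, and the uniporter GLUT2 lets glucose out on the blood side. Glucose uptake is divided along the tubule between a high-capacity carrier in its first part and a high-affinity carrier in its last part. Phosphate carriers are withdrawn from the brush border under parathyroid hormone and FGF23.

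The promoters of 3 members that differ in where they are found are printed here. Slc34a3 stood high in cells named as early tubule, and Slc5a1 in cells named as late tubule or thick limb. Slc2a2 was in both tubule classes. The late name holds in part only, as described below. RefSeq windows on GRCm38.p6 were matched for 5 of the 7 genes. They were searched on both strands for CAAAGTCCA, a motif of HNF4A, a regulator of PT genes. The motif stood in 0.384% of all 32851 windows of this length and in no window of a member, so no base is in capitals. Each run gives the 250 bases before a start site, 5′ to 3′ on the strand of the gene. The Slc34a3 window is chr2:25234235-25234484 on the minus strand, that of Slc5a1 chr5:33103969-33104218 on the plus strand and that of Slc2a2 chr3:28697653-28697902 on the plus strand.
Slc34a3: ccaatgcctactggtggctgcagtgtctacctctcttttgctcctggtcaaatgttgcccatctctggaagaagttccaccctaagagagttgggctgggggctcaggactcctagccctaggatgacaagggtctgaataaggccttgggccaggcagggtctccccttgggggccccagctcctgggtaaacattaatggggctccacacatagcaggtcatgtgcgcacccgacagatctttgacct
Slc5a1: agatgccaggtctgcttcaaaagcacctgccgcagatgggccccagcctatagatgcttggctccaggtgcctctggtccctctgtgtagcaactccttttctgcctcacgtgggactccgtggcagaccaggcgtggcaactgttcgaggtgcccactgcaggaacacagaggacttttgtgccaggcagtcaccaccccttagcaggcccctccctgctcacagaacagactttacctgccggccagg
Slc2a2: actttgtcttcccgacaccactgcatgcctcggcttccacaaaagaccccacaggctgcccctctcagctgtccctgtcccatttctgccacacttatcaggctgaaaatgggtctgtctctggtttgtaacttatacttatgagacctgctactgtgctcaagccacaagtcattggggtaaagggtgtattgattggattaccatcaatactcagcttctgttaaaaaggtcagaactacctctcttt

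The absence of a match says only that these letters are not in these windows.

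To ask which cells carried each transporter, UMIs were summed over the cells of each type and library. In both libraries 6 of the 7 genes had their highest level of any named type in PT-like cells, a pattern found for 6.25% of 13633 genes. The exception was Slc5a1, which was highest in thick ascending limb (TAL)-like cells. EC-like cells should lack these carriers, so their level is given as a measure of RNA free in the droplets. Collecting duct principal (CD-PC)-like cells, which should lack them too, held less of each of the 7 than EC-like cells in both libraries. Their median depths were 16328 and 21462 UMIs in control and ischemia, against 3803 and 4251.5 in EC-like and 13832 and 18224 in PT-like cells. The folds over EC-like cells given below would thus be larger over CD-PC-like cells. Levels are compared between cells for 1 gene at a time, since UMIs are not scaled to gene length.

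Slc5a2 (chr7:128265657-128272430, plus strand) encodes SGLT2, the high-capacity glucose carrier of the brush border. Here and below the positions are those of protein-coding genes in GENCODE M21 on GRCm38. PT-like cells held 376 CPM in control (95% Poisson interval 372 to 381; 27039 UMIs) and 276 CPM in ischemia (272 to 279.9; 18828 UMIs). EC-like cells held 66.0 and 48.0 CPM, so the PT-like level was 5.70-fold (5.11 to 6.37) and 5.75-fold (5.14 to 6.45) that background. PT-like cells carried 89.98% and 89.0% of all Slc5a2 UMIs. The unnamed low-count cluster came next, at 205 and 180.4 CPM, and in control the B cell-like, podocyte-like, neutrophil (PMN)-like and EC-like levels that followed had overlapping intervals.

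Slc2a2 (chr3:28697903-28731359, plus strand) encodes GLUT2, the basolateral exit for glucose. It stood at 255 CPM (252 to 259) in control and 224 (221 to 228) in ischemia PT-like cells, 5.15-fold and 6.94-fold the EC-like levels of 49.6 and 32.3 CPM. Slc5a10 (chr11:61672781-61720826, minus strand) encodes SGLT5, a brush border carrier of mannose and fructose. It stood at 111 CPM (108 to 113) and 68.9 CPM (66.9 to 70.9), 4.17-fold and 5.08-fold the EC-like levels of 26.5 and 13.6 CPM. Both genes had the PT-like cells clear of every other named type, with the unnamed low-count cluster second.

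Slc5a1 (chr5:33104219-33162870, plus strand) encodes SGLT1, the high-affinity glucose carrier. TAL-like cells held 195 CPM (186 to 203; 2011 UMIs) in control and 158 CPM (151 to 165; 1985 UMIs) in ischemia, 26.0-fold and 43.2-fold the EC-like levels of 7.49 and 3.66 CPM. PT-like cells held 22.2 CPM (21.1 to 23.3) and 15.9 CPM (14.9 to 16.8). The 493 and 484 TAL-like cells thus carried 48.3% and 58.4% of all Slc5a1 UMIs, and PT-like cells 38.3% and 31.9%. Another unnamed cluster, led by Wfdc15b, Ppp1r1a and Pgam2, was second for this gene, at 52.7 and 30.1 CPM.

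The Slc5a1 UMIs of the TAL were spread over many cells. In control 75.7% of TAL-like cells and in ischemia 75% had at least 1, and the 10 cells with most held 9.65% and 14.5% of them. After thinning to 1000 UMIs per cell the shares were 14.6% (11.6 to 18.1) and 15.7% (12.6 to 19.3), against 1.14% and 0.304% of EC-like cells. Median depths were 20066 and 24720 UMIs in TAL-like and 3803 and 4251.5 in EC-like cells. The TAL-like ratio of ischemia to control was 0.811 (0.762 to 0.864). In the same cells Slc12a1, the Na-K-2Cl cotransporter that defines the TAL, was at 5201 CPM in control and 496 in ischemia. Umod, another TAL marker, differed less, at 12970.5 and 8330 CPM. The 6 TAL markers summed to 20291.8 and 9408 CPM, and none of them was higher in ischemia.

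Slc5a12 (chr2:110597298-110647779, plus strand) encodes SMCT2, a brush border lactate carrier. PT-like cells held 912 CPM (905 to 919) in control and 429.6 CPM (425 to 435) in ischemia, 6.69-fold and 8.49-fold the EC-like levels of 136 and 50.6 CPM. The next levels were those of the 41 B cell-like cells in control, at 423 CPM, and of the 45 intercalated (IC)-like cells in ischemia, at 162 CPM.

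Slc34a1 (chr13:55398187-55415592, plus strand) encodes NaPi-IIa, the main phosphate carrier of the brush border. PT-like cells held 2672 CPM (2660.4 to 2684) and 1307 CPM (1298 to 1315), 4.80-fold and 6.54-fold the EC-like levels of 556 and 199.7 CPM. Slc34a3 (chr2:25228898-25234364, minus strand) encodes NaPi-IIc, another phosphate carrier of the brush border. It stood at 44.9 CPM (43.4 to 46.5) and 21.5 CPM (20.5 to 22.7), 7.40-fold and 5.89-fold the EC-like levels of 6.08 and 3.66 CPM. For both phosphate carriers the unnamed low-count cluster and then B cell-like cells came after the PT-like cells. For Slc34a3 the B cell-like rank rests on 4 UMIs in control and 2 in ischemia. Their intervals, 5.55 to 52.2 and 0.846 to 25.2 CPM, include the EC-like levels.

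**Figure D1:**
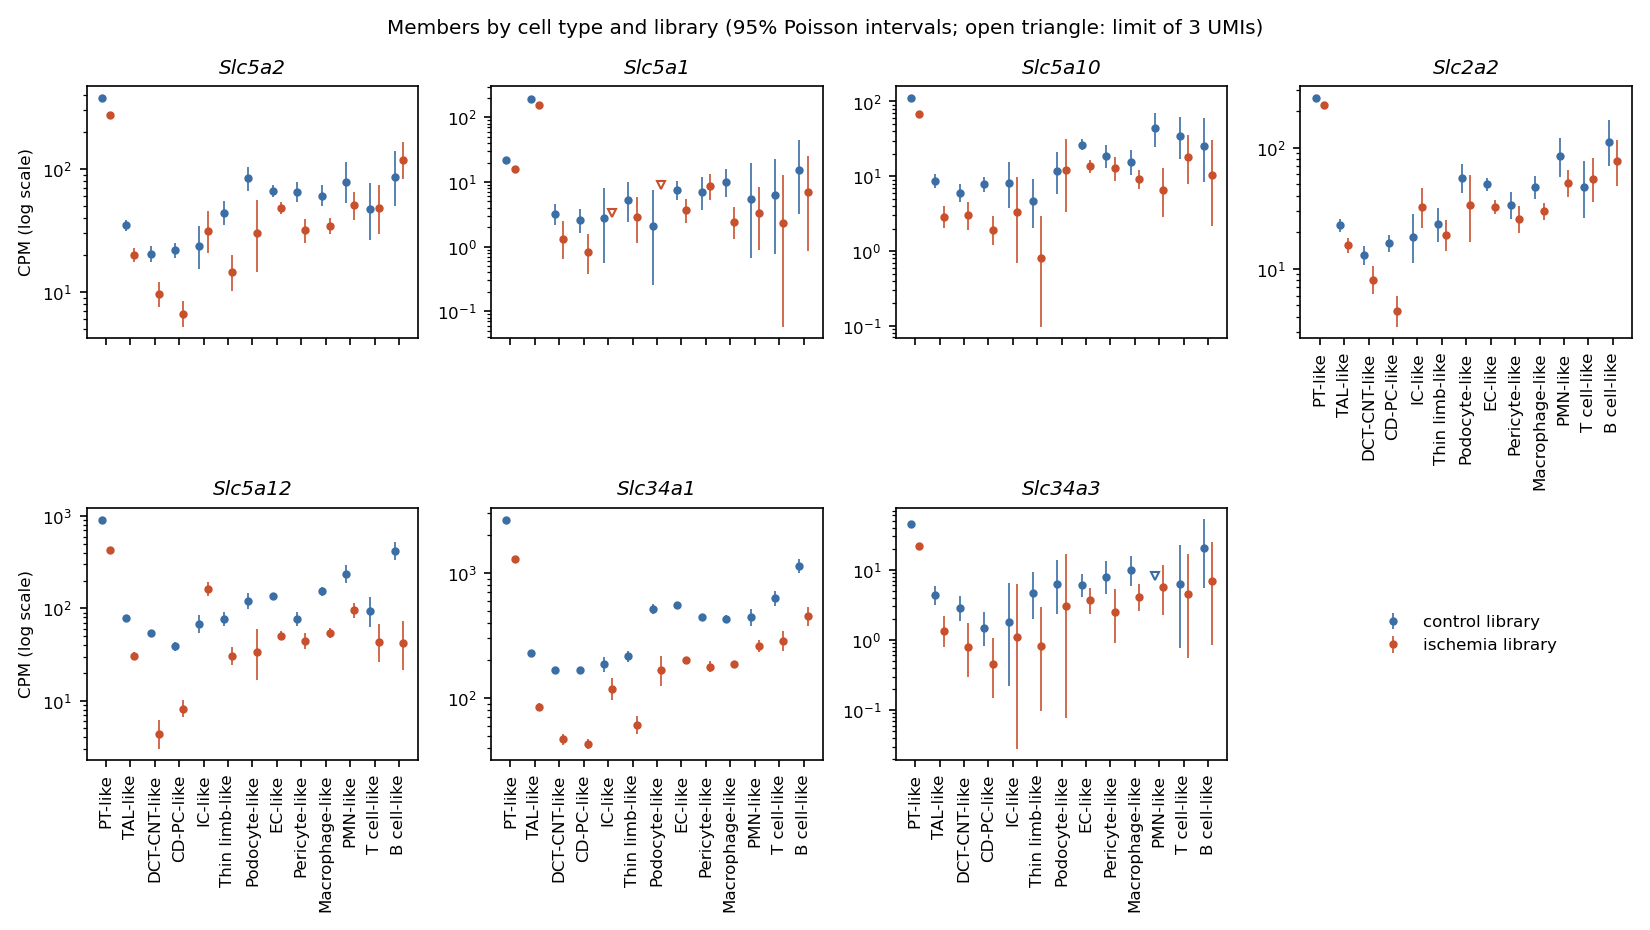
Scaled UMIs (CPM, log axis) of each gene by cell type in the control and ischemia libraries, with 95% Poisson intervals of counting error. PT-like cells are the highest named type for 6 genes and TAL-like cells for Slc5a1, at 195 and 158 CPM.

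To place the genes along the tubule, PT-like cells were clustered again without the 7 genes, and sub-clusters were named early-like or late-like from markers of the S1 and S2 or of the S3 part. The early-like class held 2022 control and 1427 ischemia cells and the late-like class 1494 and 915. Spp2, an early marker, was at 1076 and 772 CPM in early-like and at 133 and 77.2 in late-like cells. Acsm3, a late marker, was at 6.98 and 5.96 CPM in early-like and at 134 and 97.7 in late-like cells. The late name held in part only. Cyp7b1, another S3 marker, was at 863 and 404 CPM in sub-cluster 8, with 17 and 18 cells, but at no more than 0.820 CPM in sub-clusters 1 and 2, which made up the rest of the class and whose leading genes included Kap and Cyp2d9.

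In each library 3 of the 7 genes were at least 2-fold higher in early-like cells and 2 at least 2-fold higher in late-like cells. Of all genes, 5.75% in control and 5.75% in ischemia were as much higher in early-like cells, and 3.21% and 3.15% in late-like cells.

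The glucose carriers fell on both sides of this divide. Slc5a2 was at 554 CPM in early-like and 130.0 in late-like cells of control, 4.26-fold (4.11 to 4.42) higher in the former, and at 449 and 77.6 CPM in ischemia, 5.78-fold (5.51 to 6.07) higher. Slc5a1 ran the other way, at 5.30 CPM in early-like and 48.8 in late-like cells of control, 9.21-fold higher in the latter, and at 2.71 and 37.8 CPM in ischemia, 13.9-fold higher. Its early-like levels lay within the EC-like intervals of 5.28 to 10.3 and 2.34 to 5.44 CPM. They lay above the levels of CD-PC-like cells, which were 2.56 CPM (1.64 to 3.82) and 0.826 CPM (0.378 to 1.57). The types used as background thus differed, and CD-PC-like cells were nearer in depth to early-like cells. Median depths were 16680 and 14097 UMIs in early-like, 16328 and 21462 in CD-PC-like and 3803 and 4251.5 in EC-like cells. The part of free RNA was not tested. Within the class sub-cluster 0 held 14.3 CPM (12.2 to 16.6) and 9.64 CPM (7.42 to 12.3), above those intervals, and the lowest Slc5a2 of the class, 389.8 and 312 CPM.

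Slc5a10 also stood higher in late-like cells, at 238 against 32.9 CPM in control, 7.24-fold, and at 154 against 16.4 CPM in ischemia, 9.41-fold. Its level was highest in sub-cluster 8 of control, at 545 CPM (482 to 615), 2.35 (2.07 to 2.65) times the rest of the late-like class. In ischemia it was at 154 CPM from 8 UMIs, level with the rest, where the interval of the ratio ran from 0.431 to 1.97. Slc2a2 was less divided, at 316 CPM in early-like and 171 in late-like cells of control, 1.85-fold (1.79 to 1.91), and at 303 and 158 CPM in ischemia, 1.92-fold (1.85 to 1.99). Both classes thus held more Slc2a2 than EC-like cells did.

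The lactate carrier Slc5a12 was at 1315 CPM in early-like and 349 in late-like cells of control, 3.76-fold (3.68 to 3.85), and at 774 and 138 CPM in ischemia, 5.61-fold (5.42 to 5.82). The early-like class was not uniform for this gene. Its sub-clusters 0, 4 and 3 held 1936, 1292 and 250.2 CPM in control and 1253, 777 and 156 CPM in ischemia, in the same order. Sub-cluster 3 thus lay below the late-like level in control and above it in ischemia. Sub-cluster 0 had a median depth of 13456 UMIs in control and 5095 in ischemia.

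Of the phosphate carriers, Slc34a3 was sharply divided, at 70.7 against 8.37 CPM in control, 8.45-fold (7.38 to 9.73), and at 42.1 against 1.79 CPM in ischemia, 23.5-fold (17.4 to 32.3). Its late-like levels were not above the EC-like intervals of 4.10 to 8.68 and 2.34 to 5.44 CPM, but were above the CD-PC-like intervals of 0.818 to 2.51 and 0.149 to 1.07 CPM. Slc34a1 was nearly even, at 2902 and 2470.3 CPM in control, 1.17-fold (1.16 to 1.19), and at 1687 and 1175 CPM in ischemia, 1.44-fold (1.41 to 1.46). Without integration of the libraries the late-like level of Slc34a1 was the higher one, 1.07-fold in control and 1.40-fold in ischemia.

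Sub-cluster 8, the one led by S3 genes, stood apart for Slc34a1. Its control level was 250.3 CPM (208 to 299), 0.0997 (0.0828 to 0.119) of the rest of the late-like class and under the EC-like level of 556 CPM. In ischemia it held 308 CPM (176 to 499.6) from 16 UMIs. The 17 control cells of sub-cluster 8 thus combined the highest Slc5a10 level of control with the lowest Slc34a1 level of any sub-cluster of that library. Slc5a1 was not detectably higher there than in the rest of the late-like class, at 42.7 against 48.9 CPM in control, 0.873 (0.539 to 1.34). In ischemia sub-cluster 8 had 0 UMIs of Slc5a1. Its median depth was 26067 UMIs in control and 2602.5 in ischemia.

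**Figure D2:**
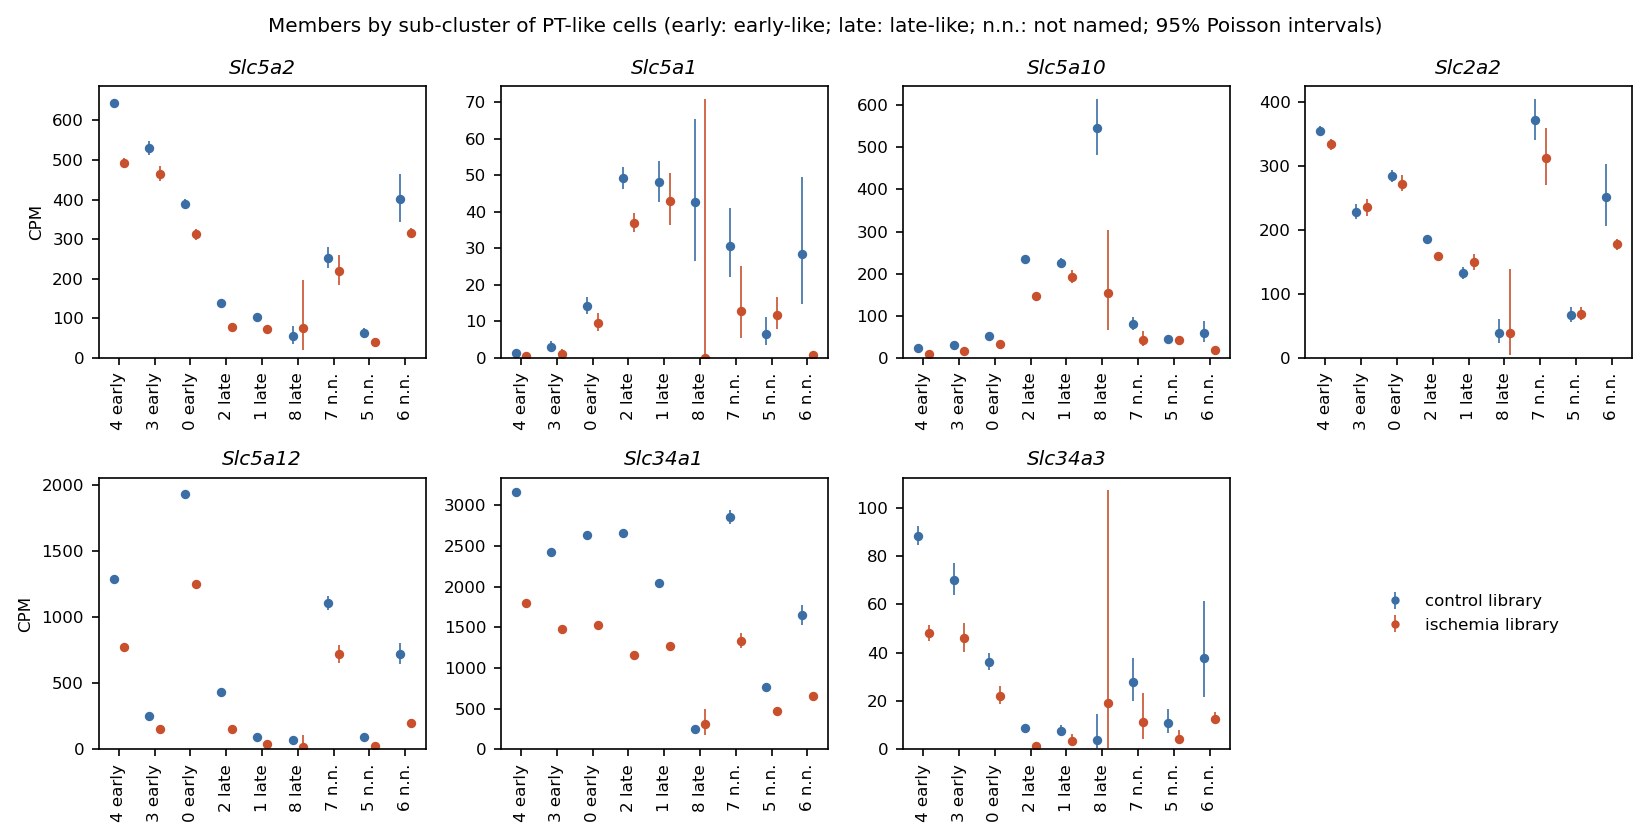
Scaled UMIs (CPM) of each gene in sub-clusters of PT-like cells of the control and ischemia libraries, with 95% Poisson intervals; sub-cluster 9, with 17 cells and endothelial leading genes, is not drawn. Slc5a2 and Slc34a3 are high in early-like sub-clusters, Slc5a1 and Slc5a10 in late-like ones, and Slc5a12 varies within the early-like class, from 1936 to 250.2 CPM in control.

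The study compares an ischemic with an uninjured kidney, and the libraries were set against each other within PT-like cells. All 7 genes were lower in ischemia, where 38.2% of the 12329 genes counted were lower by any amount. At least 2-fold lower were 3 of the 7, against 3.11% of all genes, and none was at least 2-fold higher, against 5.82%. The median ratio of ischemia to control was 0.623 over the 7 genes and 1.08 over all genes, which is 0.12 on the log2 scale.

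The 3 genes past 2-fold were the lactate carrier and both phosphate carriers. Slc5a12 was at 0.471 (0.464 to 0.477) of control, Slc34a3 at 0.479 (0.450 to 0.510) and Slc34a1 at 0.489 (0.485 to 0.493). Of all genes, 2.54%, 2.71% and 2.88% had a lower ratio than these. All 3 lie close to the 2-fold line. Without sub-cluster 6, a group of 15 control and 189 ischemia cells described below, their ratios were 0.510, 0.510 and 0.527, and none of the 7 passed 2-fold in either direction, against 2.5% of all genes lower and 4.86% higher. All 7 were still below 1, as were 37.5% of genes.

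The glucose carriers and the mannose and fructose carrier gene Slc5a10 differed less between the libraries. Slc5a10 was at 0.623 (0.6004 to 0.646) of control, Slc5a1 at 0.715 (0.661 to 0.773), Slc5a2 at 0.734 (0.720 to 0.748) and Slc2a2 at 0.878 (0.859 to 0.897). The share of genes with a lower ratio was 6.24%, 10.1%, 11.1% and 22.4%. The basolateral GLUT2 gene thus had the ratio nearest to 1 of the 7.

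Other values moved with these ratios, and their part in them was not tested. In EC-like cells the ratio was 0.359 for Slc34a1, 0.371 for Slc5a12, 0.602 for Slc34a3 and 0.727 for Slc5a2. Of the 9 PT markers 8 were also lower in ischemia PT-like cells, such as the megalin gene Lrp2 at 0.467 of control, and the exception was the sulfate carrier Slc13a1 at 1.66. Mitochondrial genes took 26.5% of PT-like UMIs in control and 22.5% in ischemia, and the median PT-like cell had 13832 and 18224 UMIs.

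Injury markers and markers of other cells moved as well. The 6 injury markers were all higher in ischemia PT-like cells and summed to 17.1 and 513 CPM, of which Havcr1, the gene of KIM-1, gave 7.14 and 417. The 6 macrophage markers were all higher and summed to 2.85 and 7.49 CPM, and 4 of the 5 thin limb markers were higher, summing to 37.9 and 254 CPM. Lists of other tubule cells were lower, at 311 and 192 CPM for the TAL, 83.6 and 16.97 for the distal and connecting tubule, 45.8 and 20.3 for CD-PC and 22.3 and 9.17 for intercalated cell markers. No gene of these lists was at 0 in both libraries.

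The direction of 4 of the 7 genes depended on how the libraries were joined. Without integration the PT-like clusters held 401 control and 1314 ischemia cells, and the ratios were 2.90 for Slc5a12, 2.35 for Slc5a2, 1.53 for Slc34a3 and 1.51 for Slc2a2. The other 3 stayed below 1, with Slc34a1 at 0.590, Slc5a10 at 0.338 and Slc5a1 at 0.316. Under each of the other settings tried all 7 were below 1.

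**Figure D3:**
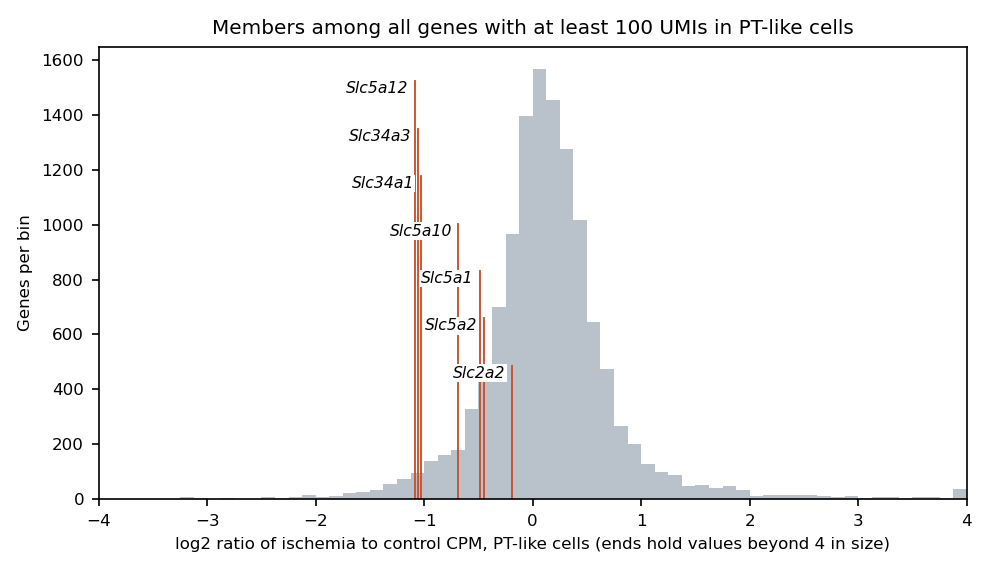
Histogram of the log2 ratio of ischemia to control CPM over the 12329 genes counted in PT-like cells (vertical axis, genes per bin), with the 7 transporter genes marked. Slc5a12, Slc34a3 and Slc34a1 lie just past -1, which is 2-fold lower, and all 7 lie left of the median of 0.12.

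Within early-like cells all 7 ratios were below 1, as were those of 32.9% of genes, and 1 of the 7 was at least 2-fold lower, against 1.59%, and none higher, against 4.08%. That gene was Slc5a10, at 0.497 (0.447 to 0.551), in the class where its level was low. Its ischemia level of 16.4 CPM lay within the EC-like interval of 10.9 to 16.7 CPM, and its EC-like ratio was 0.511. Slc34a1 was at 0.581 (0.575 to 0.587), Slc5a12 at 0.589 (0.580 to 0.598) and Slc34a3 at 0.595 (0.556 to 0.635). Slc5a2, whose level was highest in this class, was at 0.810 (0.793 to 0.827), and Slc2a2 at 0.961 (0.936 to 0.987).

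Within late-like cells all 7 ratios were below 1, as were those of 37.2% of genes, and 3 of the 7 were at least 2-fold lower, against 2.78%, and none higher, against 4.81%. Slc34a3 was at 0.214 (0.152 to 0.296), from 223 UMIs in control and 45 in ischemia, where neither level is above the EC-like interval. Slc5a12 was at 0.395 (0.379 to 0.410) and Slc34a1 at 0.476 (0.469 to 0.482). Slc5a1 and Slc5a10, whose levels were highest in this class, were at 0.774 (0.711 to 0.842) and 0.646 (0.621 to 0.673), and Slc5a2 and Slc2a2 at 0.597 (0.565 to 0.631) and 0.928 (0.889 to 0.968). Differences between the classes in these ratios were not tested.

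**Figure D4:**
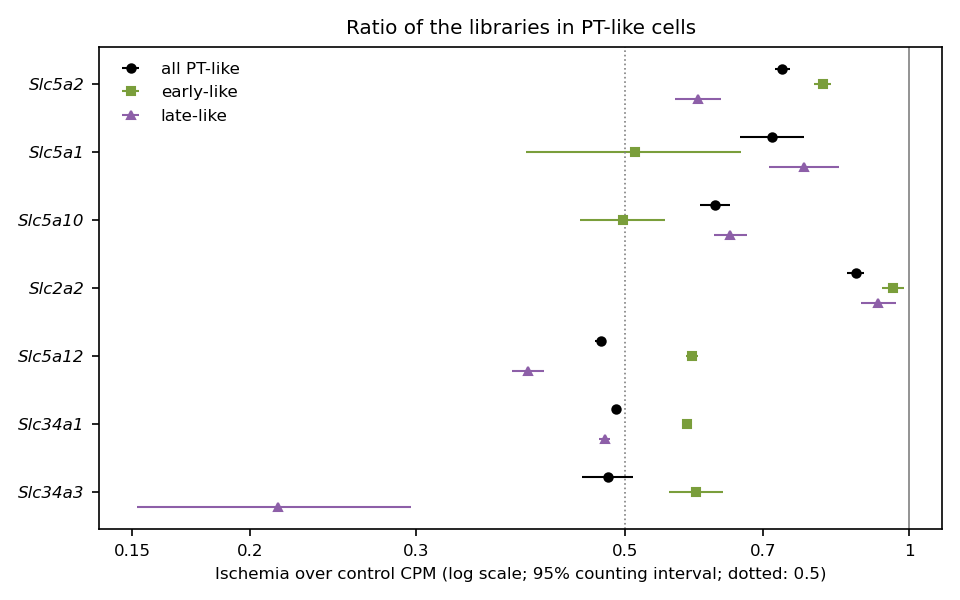
Ratio of ischemia to control CPM (log axis) of each gene in all PT-like, early-like and late-like cells, with exact 95% intervals of counting error. All points lie below 1, with Slc2a2 in early-like cells nearest to it (0.961) and Slc34a3 in late-like cells farthest from it (0.214).

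Shares of positive cells were taken with each cell thinned to 1000 UMIs. At a fixed depth such a share largely follows the level, so it cannot tell whether fewer cells carried a gene. The 136 control and 43 ischemia PT-like cells below that depth were left out. Slc34a1 was then found in 86.2% (85.1 to 87.3) of control and 65.7% (63.8 to 67.4) of ischemia PT-like cells (Clopper-Pearson intervals), and Slc5a12 in 38.0% (36.5 to 39.6) and 24.7% (23.1 to 26.4). Before thinning the shares were 98.4% and 95.3% for Slc34a1 and 70.6% and 60.5% for Slc5a12. The median PT-like cell had 32 UMIs of Slc34a1 in control and 20 in ischemia, and 2 and 1 of Slc5a12. In thinned EC-like cells, whose median depths were 3803 and 4251.5 UMIs, the shares were 39.1% and 19.9% for Slc34a1 and 10.2% and 4.46% for Slc5a12. Both the carriers' own cells and the background thus had lower shares in ischemia.

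Slc5a2 was found in 24.97% (23.6 to 26.4) of thinned control and 20.8% (19.3 to 22.4) of thinned ischemia cells, before thinning 67.5% and 64.6%. Slc5a10 was found in 9.24% (8.34 to 10.2) and 6.39% (5.50 to 7.37), before thinning 44.7% and 37.3%. For Slc2a2 the thinned shares were 19.4% (18.1 to 20.7) and 19.9% (18.4 to 21.4), before thinning 74.4% and 76.2%, so a lower share was not detectable for GLUT2. Slc5a1 was in 2.22% (1.78 to 2.75) of thinned control and 1.35% (0.953 to 1.86) of thinned ischemia cells. Slc34a3 was in 3.20% (2.67 to 3.82) and 2.45% (1.90 to 3.10), so few cells were positive for either gene at this depth. Before thinning Slc5a1 and Slc34a3 were in 20.3% and 31.7% of control and 17.4% and 24.4% of ischemia cells.

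**Figure D5:**
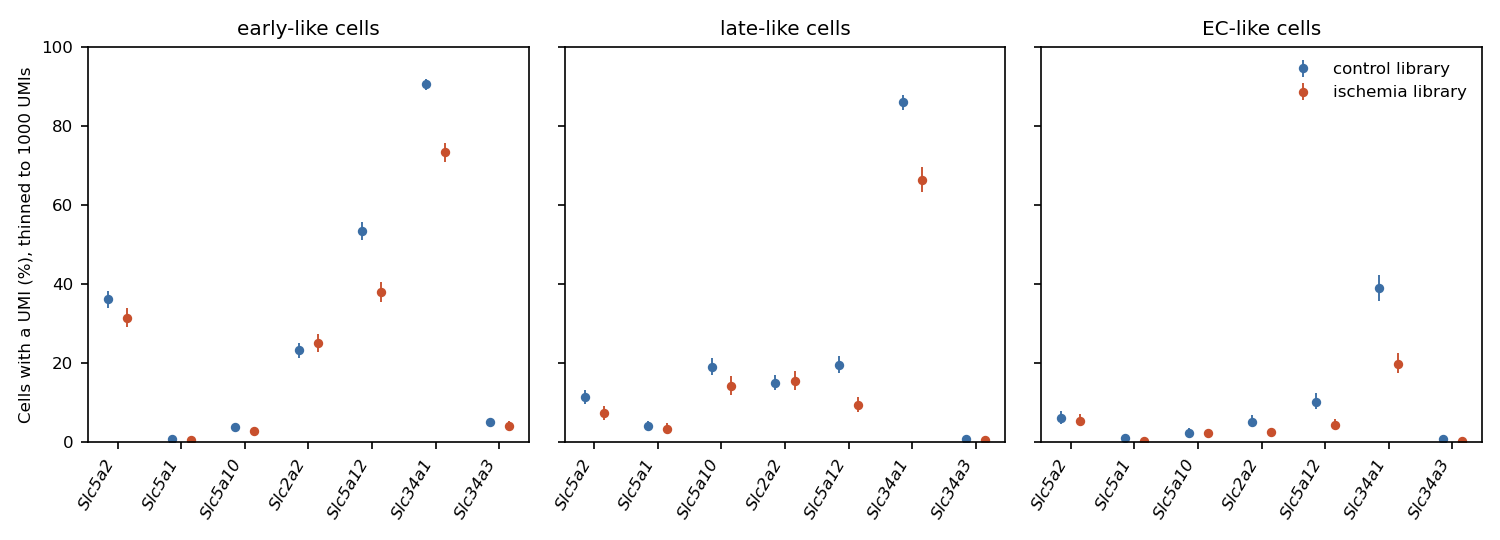
Share of cells with a UMI of each gene (percent) after thinning every cell to 1000 UMIs, by cell class and library, with exact 95% intervals. Shares of Slc34a1 and Slc5a12 are lower in ischemia in early-like and late-like cells and also in EC-like cells, where Slc34a1 was in 39.1% and 19.9%.

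Slc5a2 UMIs were found in a smaller share of cells with a Slc5a1 UMI than of cells without. After thinning to 2000 UMIs, 20.7% (14.5 to 28.0) of the 150 control PT-like cells with a Slc5a1 UMI also had one of Slc5a2, against 40.3% (38.7 to 41.97) of those without. In ischemia the shares were 7.32% (2.73 to 15.2) of 82 cells and 35.2% (33.4 to 37.1). Slc5a1 and Slc5a10 ran together instead, with Slc5a1 in 7.08% (5.13 to 9.48) of Slc5a10-positive and 3.61% (2.97 to 4.33) of other control cells.

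Sub-cluster 6 had the highest score for the injury markers and was led by Lgals3, S100a6, Tmsb10 and Vim. It stayed unnamed. It held 189 of the 2783 ischemia PT-like cells and, with a median of 50212 UMIs per cell, 13.7% of their UMIs. Havcr1 was not particular to it: the gene was at 631 CPM there and at 716 in late-like sub-cluster 2 of the same library.

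In the ischemia library 4 of the 7 genes were at least 2-fold lower in sub-cluster 6 than in the other PT-like cells, against 3.95% of all genes. Slc5a1 was at 0.747 against 18.3 CPM, a ratio of 0.0409 (0.0164 to 0.0846) that rests on 7 UMIs, and Slc5a10 at 19.7 against 76.7 CPM, 0.257 (0.221 to 0.298). Slc5a12 was at 201 against 466 CPM, 0.432 (0.412 to 0.453), and Slc34a1 at 654 against 1411 CPM, 0.463 (0.451 to 0.475). Slc5a1 and Slc5a10 thus had the lowest ratios of the 7, but the other PT-like cells include the late-like class, where both stood high.

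The other 3 genes did not pass 2-fold in sub-cluster 6 when set against all other PT-like cells. Slc34a3 was at 0.558 (0.459 to 0.673) and Slc2a2 at 0.767 (0.729 to 0.807) of the other PT-like cells, and Slc5a2 was higher, at 316 against 269.5 CPM, 1.17 (1.13 to 1.22). Against early-like cells alone, Slc5a2 was at 0.705 (0.677 to 0.734), Slc34a1 at 0.387 (0.377 to 0.398) and Slc5a12 at 0.260 (0.248 to 0.273). In the same comparison Slc34a3 was at 0.304 (0.250 to 0.367), which is past 2-fold, and Slc2a2 at 0.586 (0.555 to 0.617). The share of all genes past 2-fold against early-like cells is not given here. Slc5a1 was at 0.275 (0.107 to 0.593) and Slc5a10 at 1.21 (1.01 to 1.43) of early-like cells, so Slc5a10 was not lower in that comparison. These values rest on how the cells were divided. At resolution 0.6 the sub-cluster with the highest injury score held 854 ischemia cells, Slc5a2 was at 0.799 and Slc5a1 at 1.24 of the other cells, and 1 of the 7 was past 2-fold. The share of all genes past 2-fold is not given here for that resolution. Slc34a3 was then at 1.16, and at 1.68 with at most 25% mitochondrial UMIs per cell.

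Havcr1 also divided cells within the classes. Among late-like ischemia cells, the 305 with a Havcr1 UMI after thinning had 0.386 (0.355 to 0.420) of the Slc5a12 level of the 574 without, 0.670 (0.653 to 0.687) of the Slc34a1 level and 0.871 (0.815 to 0.930) of the Slc5a10 level. Among early-like cells the 231 with a Havcr1 UMI had 0.637 (0.616 to 0.657) of the Slc34a1 level and 0.659 (0.619 to 0.7004) of the Slc5a2 level of the 1189 without, but 3.82 (2.33 to 6.13) of the Slc5a1 and 2.29 (1.84 to 2.82) of the Slc5a10 level. Median depths differed, at 35265 and 24514.5 UMIs in late-like and 7162 and 16593 in early-like cells with and without Havcr1, and 11.1% of thinned EC-like cells had a Havcr1 UMI too.

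Sub-cluster 5, with 276 control and 208 ischemia cells, was led by Hspb1, Cryab and S100a6 and was low for several members in both libraries. It stayed unnamed, and its mean log2 scores were -0.879 for early, -0.399 for late and 0.440 for injury markers. Cryab is also a thin limb marker, and Cryab and S100a6 were among the leading genes of the thin limb-like cluster. Whether the cells of sub-cluster 5 were PT cells was not tested. Slc5a12 was at 97.7 and 26.2 CPM there, 0.104 (0.0903 to 0.120) and 0.0589 (0.0455 to 0.0751) of the other PT-like cells, and Slc34a1 was at 765 and 472 CPM, 0.281 (0.267 to 0.295) and 0.353 (0.333 to 0.374). Mitochondrial genes took 6.33% and 8.85% of its UMIs, well under the PT-like values above.

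Other genes of the same pathways were taken from 6 lists. Of their 35 genes, 6 were at least 2-fold lower and 3 at least 2-fold higher in ischemia PT-like cells, to be read against the 3.11% and 5.82% of all genes. Their median ratio was 0.749.

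Of the 5 gluconeogenesis genes 2 were at least 2-fold lower and none higher. G6pc, the phosphatase that releases free glucose, was at 222 CPM in control and 54.6 in ischemia, a ratio of 0.246 (0.238 to 0.255), and Pck1, a rate-limiting enzyme of the pathway, at 535 and 157 CPM, 0.294 (0.287 to 0.300). Pcx, pyruvate carboxylase, was at 0.538 (0.524 to 0.553).

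Of the 6 lactate genes 2 were at least 2-fold lower and none higher. These were the monocarboxylate carrier Slc16a7, at 0.178 (0.139 to 0.226) from 485 and 82 UMIs, and Slc5a8 (SMCT1), at 0.473 (0.443 to 0.504). In PT-like cells Slc16a7 was at 6.75 and 1.20 CPM, below the EC-like levels of 22.3 and 3.81 CPM. It was far higher in TAL-like cells, at 533 CPM in control and 70.3 in ischemia. Bsg, a chaperone of such carriers, was at 1.07 (1.05 to 1.10) and Ldha, a lactate dehydrogenase subunit, at 1.25 (1.23 to 1.27); both were below 1 without integration, and Bsg also after centring on the median ratio.

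Of the 6 other hexose genes 2 were at least 2-fold lower and 1 higher. Slc2a5, the fructose carrier GLUT5, was at 29.6 CPM in control and 12.0 in ischemia, 0.406 (0.374 to 0.440), and Slc5a11, an inositol carrier of the SGLT family, at 39.7 and 17.5 CPM, 0.442 (0.412 to 0.473). Slc2a1, the widespread carrier GLUT1, was at 4.08 and 8.85 CPM, 2.17 (1.89 to 2.51), below the EC-like levels of 16.8 and 23.2 CPM. Pdzk1ip1 (MAP17), a partner of SGLT2, was at 0.924 (0.913 to 0.936).

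Of the 10 phosphate genes 2 were at least 2-fold higher and none lower. Slc34a2, the NaPi-IIb carrier known from lung and gut, was at 0.139 CPM in control and 3.31 in ischemia, 23.8 (12.7 to 50.3), from 10 and 226 UMIs. It was highest in thin limb-like cells, at 55.8 and 322 CPM, and TAL-like cells held 8.51 and 59.5 CPM. EC-like cells held 0 and 6 UMIs, the latter 0.914 CPM, and CD-PC-like cells of ischemia 0.551 CPM. Pericyte-like and PMN-like cells of ischemia stood above the PT-like level, at 7.40 CPM from 18 UMIs in 5 cells and 7.34 CPM from 9 UMIs in 3 cells. Within ischemia PT-like cells the gene was uneven. Sub-clusters 2 and 6 held 5.81 and 5.55 CPM, and sub-cluster 4 held 0.0546 CPM from 1 UMI. Median depths of sub-clusters 2 and 4 were 43850 and 42908 UMIs. The part of free RNA in the PT-like level was not tested. Slc20a1, the widespread phosphate carrier PiT-1, was at 12.0 and 35.4 CPM, 2.95 (2.73 to 3.19). Its EC-like levels were 16.8 and 26.2 CPM, above the PT-like level in control and below it in ischemia. The lowest of the list were Kl, the co-receptor of FGF23, at 0.536 (0.520 to 0.552) and Pdzk1, a brush border scaffold, at 0.661 (0.649 to 0.673).

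None of the 3 sodium pump genes and none of the 5 transcription factor genes passed 2-fold. Atp1b1, the accessory subunit of the pump, was at 0.876 (0.867 to 0.886), and the pump's regulator Fxyd2 at 1.09 (1.08 to 1.09). Both crossed 1 without integration, and Fxyd2 also with at most 25% mitochondrial UMIs per cell. Hnf4a and Hnf4g, factors that act in PT genes, were at 0.706 (0.687 to 0.725) and 0.777 (0.741 to 0.814), and without integration Hnf4g was above 1.

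Genes with a like pattern were listed by Pearson's r of log2(CPM + 10) over 22 points, which are cell types of the 2 libraries and share their depth, as a description. Slc5a2 was most like Slc4a4 (r = 0.980), Spp2 (0.979) and Folh1 (0.975), and Slc34a3 most like Cryl1 (r = 0.970), Slc2a5 (0.966) and Xylb (0.957). Slc5a10 was most like Slc3a1 (r = 0.981), Mep1a (0.980) and Slc22a12 (0.979), and Slc2a2 was like Glyat (r = 0.980) and Slc7a9 (0.973). Slc34a1 was most like Acsm2 (r = 0.990), Lrp2 (0.990) and Miox (0.989), all 3 of them PT markers, and Slc5a12 most like Kcnj15 (r = 0.958), Cubn (0.957) and Slc34a1 (0.949). Slc5a1 was most like Rps6ka6 (r = 0.925), Gm17225 (0.924) and Defb42 (0.919). No gene was listed for different members.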

How the data were processed

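The authors deposited 1 matrix of UMI counts per library, made with Cell Ranger 7.0.0 on mm10 per the submitters' processing notes; whether intronic reads were counted is not given in the sources used here. The members and lists were chosen with earlier results of these data known. A barcode was kept when it had 200 or more genes, between 500 and 150000 UMIs, and no more than 55% of them from mt- genes. Clusters were made in Seurat 5.3.0 under R 4.3.3. Counts were log-normalised to 10000, the members were kept out of the 2000 variable genes, the libraries were joined by anchors, and 30 principal components, resolution 0.3 and seed 42 were used; PT-like cells were clustered again in the same way. A cluster took the name of its best marker list where at least 3 markers had at least 10 UMIs and its 10 leading genes did not contradict the name (pseudocount of 10 CPM, leading genes of at least 50 UMIs); a sub-cluster needed a margin of 0.2 on the log2 scale. The details of these naming rules were set after values were seen.

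UMIs were summed by library and class and scaled to CPM (Python 3.11.15, numpy 2.4.6, scipy 1.17.1, pandas 2.3.3, matplotlib 3.10.9), with exact 95% Poisson, conditional binomial and Clopper-Pearson intervals. With 1 library per condition, a gene of at least 100 UMIs was counted as past a fold of 2 without a test, and the scripts were tested on simulated data. Shares of positive cells were taken after thinning to 1000 UMIs. Doublets were kept: Scrublet (scanpy 1.11.5) called 0, which means that it did not work here. Of the gene IDs, 32235 were found in GENCODE M21. Named genes were the 7 members, the 2 highest and 2 lowest ratios of each pathway list and the 3 genes most alike to each member; markers and leading genes of clusters are named beside them. Alternatives were the cell filters, resolution, integration, gating, scaling, weighting, centring, class mix, fold, gene filter and doublets. The Slc5a2 and Slc5a12 promoters were not analysed here. A few genes that the naming rule selects, and another promoter motif that was searched, are not reported here.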

Additional observations from a re-analysis of the deposited data

Results flagged for a closer look

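Pdzk1ip1 (MAP17), the partner of SGLT2, stood on opposite sides of 1 in the PT classes. Its ratio of ischemia to control was 1.03 (1.01 to 1.05) in early-like cells and 0.877 (0.858 to 0.896) in late-like cells. Both lay below the median ratio over all genes, which was 1.10 in early-like and 1.09 in late-like cells. The difference was not tested, since there is 1 library per condition.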

How the results depend on the processing

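No paired analysis was possible because each condition has 1 library and the labels give no replicate numbers. For the same reason no library could be left out. Intervals cover counting error, not the spread between animals. Over the settings tried, the direction held for 101 of 105 ischemia to control ratios of the 7 genes. It held for 151 of 153 late-like to early-like ratios and 313 of 321 ratios of pathway genes. For the sub-cluster with the highest injury score, chosen anew where cells were clustered again, it held for 55 of 63 ratios. The cause of each change below was not tested.

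The 3 genes at least 2-fold lower in ischemia became 0 with PT cells gated on marker UMIs, with every cell given equal weight, with the control mix of sub-clusters, and without sub-cluster 6. Of all genes, 2.49%, 2.83%, 2.21% and 2.50% were at least 2-fold lower under these settings, in the same order. Without integration 2 of the 7 were at least 2-fold higher in place of 0 and 2 at least 2-fold lower, against 11.9% and 2.53% of all genes, Slc5a12 reversed to 2.90 and Slc34a3 to 1.53, and 3 of the 7 in place of 6 were highest in PT-like cells. Of all genes, 384 were at least 2-fold lower, and 954 passed a fold of 1.5 and 719 the 2-fold line among genes with at least 20 UMIs. The 717 genes at least 2-fold higher became 1290 without integration, 1838 at a fold of 1.5 and 1271 at 20 UMIs, and the 6 lower pathway genes became 13 at a fold of 1.5. Of the genes past 2-fold, 34.9% were lower, against 47.5% with at most 25% mitochondrial UMIs, 45.9% after centring on the median ratio and 17.5% without integration. In the sub-cluster with the highest injury score, 4 lower genes became 0 with at most 25% mitochondrial UMIs, 1 at resolution 0.6 and 0 without integration. The share of all genes was 3.95% under the main setting and is not given here under the others. In that sub-cluster Slc5a1 reversed to 1.24 at resolution 0.6 and to 1.20 without integration, where Slc5a10 was at 1.07 and Slc5a12 at 1.28. Slc34a3 was at 1.68 with at most 25% mitochondrial UMIs and 1.16 at resolution 0.6, and Slc5a2 at 0.799 at resolution 0.6 and 0.682 without integration. The gate gives no sub-clusters and so no such value. Of the 21 genes with the most alike patterns, 13 were shared with log2(CPM + 1). Scrublet called 0 doublets, so leaving out its calls changed nothing, and leaving out the 8% highest scores, like leaving out sub-cluster 6, was chosen after seeing the data.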
